A study of Rattus norvegicus with 4 samples.

Results

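Txnip, Slc2a1, Hk1 and Hk2 encode an inhibitor of glucose uptake, a glucose carrier and a pair of hexokinases, and are followed here through the serum response of Rat1 fibroblasts, an immortalized rat cell line. All probe sets with 1 gene symbol that named one of these 4 genes were taken, which gave 8 probe sets, 2 for each gene, out of 7006 probe sets for 4736 genes. The genes were chosen by their known role together with fold values of these same arrays at 90 min, so that their values are a description and carry no test. Each of 4 conditions was hybridized to 1 Affymetrix rat genome array, namely Rat1-Omomer cells 90 min after 10% serum and before it (0 min) and Rat1-control cells likewise, all after 48 h in 0.1% serum. Rat1-Omomer cells were stably infected with a retrovirus for Omomer, which is Omomyc, a mutated dimerization domain of Myc, joined to the tamoxifen-inducible part of the estrogen receptor; Rat1-control cells carried the empty virus. The drug 4-OHT, which switches Omomer on, was given to both cell lines, for the whole starvation by the sample labels and from 4 h before serum by the methods. Retrovirally infected cells express the protein from a viral promoter, and nothing in the labels gives the number of clones or cultures behind an array. A label field goes against the title, by naming the other cell line, for Rat1-Omomer at 0 min and Rat1-control at 90 min; the titles were followed.

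Glucose enters fibroblasts mainly through Glut1, the product of Slc2a1, and is trapped inside the cell by hexokinases, which turn it into glucose 6-phosphate. Hk1 encodes the form found in nearly all tissues, and Hk2 an inducible form; both can bind to mitochondria. Txnip encodes an arrestin-like protein that binds thioredoxin and lowers uptake by driving Glut1 off the cell surface. Its gene is switched on by MondoA and Mlx, a pair of Myc-related factors that sense glucose 6-phosphate, and growth factors lower its mRNA. Slc2a1 and Hk2 are known targets of both Myc and HIF-1.

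Values are average differences, a measure of the brightness of matching over mismatching probes, in intensity units. Negative values made up 24.8% to 27.7% of each array, and gave a noise SD of 524.1. A floor of 1048.2, or 2 noise SD, was put under each value before a ratio was taken, so that a fold against a value under the floor is a lower bound, written as "at least". A noise range follows some folds. It moves both values by 2 noise SD in opposite senses, and a bound under 1 in it means the opposite direction. It covers neither differences between cultures nor errors in proportion to the signal, and no spread between replicates exists. The Rat1-Omomer 90 min array stood apart from the rest, with a 99th percentile of 72057 against 43961 to 54800 on the other 3, and a floor of 1228 from its own noise against 895 to 1090. The beta-actin control probe sets lay between 79642 and 94566 on that array and between 38528 and 52950 on the other 3. Folds of 2 probe sets of 1 gene differed more where this array was used: the median gap was 0.56 (log2) for Rat1-Omomer and 0.24 for Rat1-control cells at 90 min over 0 min, across 671 and 640 genes, folds at the floor included. Of 36 probe sets of fibroblast markers 31 were above the floor on all 4 arrays. None of 11 epithelial, 11 leukocyte, 17 hepatocyte and 7 skeletal muscle marker probe sets was. Among these, however, rc_AA799594_at of the skeletal muscle marker Myh1 read 608 in Rat1-Omomer cells at 90 min but 4584 to 6720 on the other 3 arrays. Of 9 adipocyte marker probe sets 2 were, D49653_s_at of Lep at 12420 to 21228 and that of Cfd at 1125 to 3697, while the other 2 probe sets of Lep were below 0 on all 4 arrays; their part in the results was not tested.

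Txnip had the highest intensities before serum and lay close to the noise after it. A level is an average over the culture, in which fewer cells with an mRNA and less of it per cell cannot be told apart. Its first probe set, rc_AI014169_at, read 1269 in Rat1-Omomer and 694 in Rat1-control cells at 90 min, against 7739 in Rat1-Omomer and 10086 in Rat1-control cells at 0 min. Its second, rc_AI237654_at, read 1263 and 1035 at 90 min, against 2995 and 4295 at 0 min, in the same order of the cell lines. Both 0 min arrays were therefore above both 90 min arrays for each probe set. In Rat1-Omomer cells the first probe set was 6.10-fold lower at 90 min than at 0 min (noise range 2.89 to 39.8), and the second 2.37-fold lower (noise range 0.842 to 18.8). In Rat1-control cells Txnip was at least 9.62-fold lower by the first and at least 4.10-fold lower by the second. At the first probe set this was the 93rd lowest fold among the 4209 probe sets with a fold in Rat1-Omomer cells, and the second lowest among 3985 in Rat1-control cells; folds at the floor are bounds, so that these places are approximate. The folds of both probe sets were 1.36 apart on the log2 scale in Rat1-Omomer cells, wider than in 83.3% of genes with at least 2 probe sets; in Rat1-control cells both folds are bounds and give no such gap. The 90 min values of Rat1-Omomer cells, 1269 and 1263, were only just above the floor of 1228 from the noise of their own array.

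Slc2a1 went in the opposite direction, with both probe sets higher at 90 min in both cell lines. S68135_s_at read 13890 in Rat1-Omomer and 19376 in Rat1-control cells at 90 min, against 3209 in Rat1-Omomer and 2674 in Rat1-control cells at 0 min. M13979_at read 5565 and 9238 at 90 min, against 1952 and 1185 at 0 min, again with Rat1-Omomer first. In each probe set the order was Rat1-control at 90 min, Rat1-Omomer at 90 min, Rat1-Omomer at 0 min and Rat1-control at 0 min, from high to low. The last 2 of these lay within noise of each other. In Rat1-Omomer cells the folds over 0 min were 4.33 (noise range 3.02 to 6.91) by S68135_s_at and 2.85 (noise range 1.51 to 7.32) by M13979_at. In Rat1-control cells they were 7.25 (noise range 4.92 to 12.6) and 7.80 (noise range 3.67 to 75.2). These were the 48th and 139th highest of 4209 folds in Rat1-Omomer cells, and the 15th and 14th highest of 3985 in Rat1-control cells. The gap between both probe sets was 0.60 for Rat1-Omomer cells, wider than in 52.8% of genes, and 0.11 for Rat1-control cells, wider than in 24.1%.

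The promoter of Slc2a1 is shown because both of its probe sets were higher at 90 min in both cell lines. It is the window of 250 bases before the annotated start (RefSeq, build GRCr8, chr5:138002272-138002521, plus strand), with capitals for CCGCCC, the reverse complement of the GC box GGGCGG, and for ACGTG, the core of a HIF-1 site.
Slc2a1: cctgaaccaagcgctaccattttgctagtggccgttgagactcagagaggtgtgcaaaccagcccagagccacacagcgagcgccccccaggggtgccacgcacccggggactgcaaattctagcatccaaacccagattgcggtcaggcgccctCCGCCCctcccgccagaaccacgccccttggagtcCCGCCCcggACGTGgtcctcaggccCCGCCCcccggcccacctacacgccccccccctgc
CCGCCC began at positions -95, -60 and -35 from the start, and ACGTG at -51. The Myc E-box CACGTG, of which ACGTG is a part, was not in this window. It was in none of the 4 windows searched either (1 for Slc2a1, 1 for Hk2 and 2 for the start sites of Hk1; the promoter of Txnip was not analysed here), and in 5.59% of the 33469 windows of all genes. On either strand, GGGCGG was in 30.5% of all windows, ACGTG in 16.6% and TATAAA in 12.9%. Hk2 and the first Hk1 window held none of these, and the second Hk1 window held GGGCGG and ACGTG. Such matches are descriptions of letters and not of binding.

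**Figure D1:**
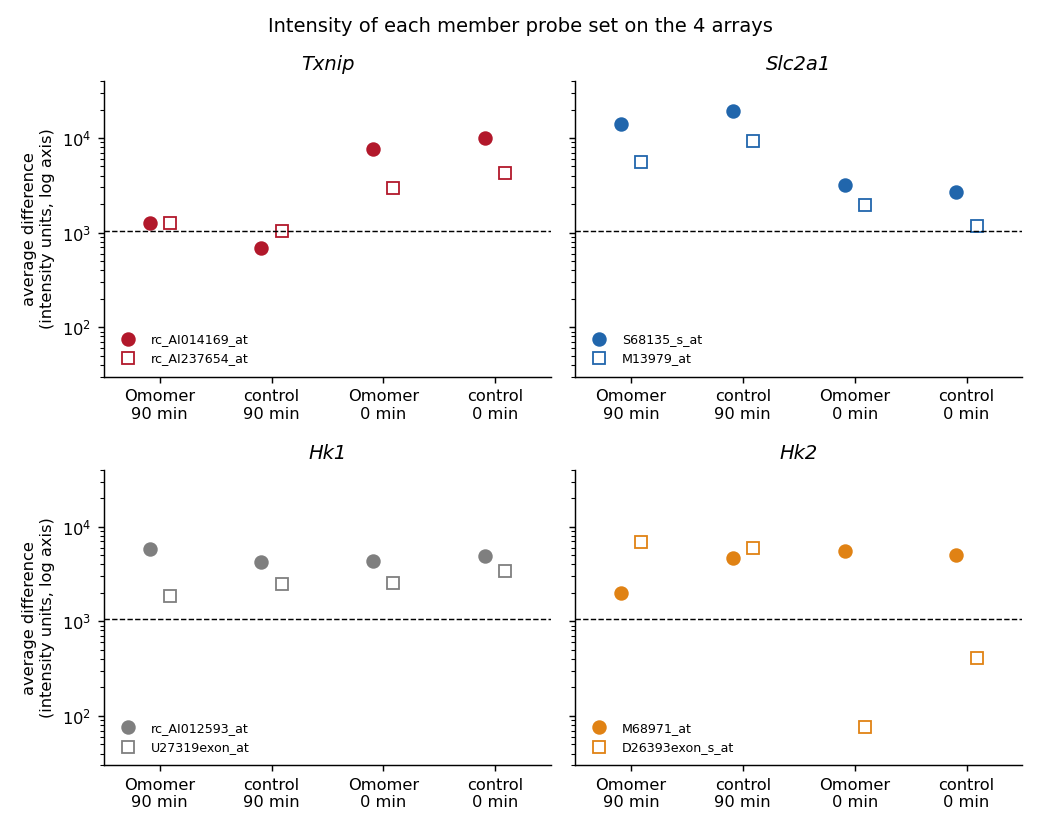
Intensity (average difference, log axis) of the 8 probe sets on the 4 arrays, with 1 array per condition and no error bars. Filled circles and open squares are the 2 probe sets of a gene, and the dashed line is the floor of 1048.2. Txnip is high at 0 min and near the floor at 90 min, Slc2a1 is the reverse, and the 2 probe sets of Hk2 part at 0 min and in Omomer cells at 90 min.

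The 2 probe sets of Hk2 did not give the same answer. D26393exon_s_at read 6856 in Rat1-Omomer and 5994 in Rat1-control cells at 90 min, against 76 in Rat1-Omomer and 409 in Rat1-control cells at 0 min. It was thus under the floor in both cell lines before serum and well above it in both after serum, at least 6.54-fold up in Rat1-Omomer and at least 5.72-fold up in Rat1-control cells, the 26th highest fold in each. M68971_at, in contrast, read 1991 in Rat1-Omomer and 4624 in Rat1-control cells at 90 min, against 5599 in Rat1-Omomer and 5079 in Rat1-control cells at 0 min. Here a single array was low, that of Rat1-Omomer cells at 90 min. M68971_at was 2.81-fold lower at 90 min than at 0 min in Rat1-Omomer cells (noise range 1.5 to 7.05) and 1.10-fold lower in Rat1-control cells (noise range 0.711 to 1.71). Both folds were at least 4.2 apart on the log2 scale in Rat1-Omomer and at least 2.65 apart in Rat1-control cells, since that of D26393exon_s_at is a bound. With a floor of 4 noise SD that bound was 3.27-fold and 2.86-fold, the second of these no longer past 3-fold. These values do not tell which of both follows the Hk2 mRNA, and probe sequences were not used here.

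Hk1 differed by less than 1.4-fold between 90 min and 0 min by both probe sets in both cell lines. Its first probe set, rc_AI012593_at, read 5836 in Rat1-Omomer and 4243 in Rat1-control cells at 90 min, against 4344 in Rat1-Omomer and 4890 in Rat1-control cells at 0 min. Its second, U27319exon_at, read 1868 and 2508 at 90 min, against 2514 and 3426 at 0 min, with Rat1-Omomer first. The first was 1.34-fold higher at 90 min in Rat1-Omomer (noise range 0.888 to 2.09) and 1.15-fold lower in Rat1-control cells (noise range 0.726 to 1.86). The second was 1.35-fold lower in Rat1-Omomer (noise range 0.503 to 4.35) and 1.37-fold lower in Rat1-control cells (noise range 0.669 to 3.06). All 4 noise ranges held 1, and in Rat1-Omomer cells the probe sets pointed in opposite directions.

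In all, 2 of the 8 probe sets were up by 3-fold or more at 90 min in Rat1-Omomer cells and 1 was down by as much, against 2.90% (up) and 9.65% (down) of all 4209 probe sets with a fold. They were S68135_s_at of Slc2a1, D26393exon_s_at of Hk2 and rc_AI014169_at of Txnip. In Rat1-control cells 3 were up by 3-fold or more and 2 down, against 1.93% and 1.81% of 3985; these were both of Slc2a1 and 1 of Hk2, and both of Txnip. With a floor of 4 noise SD, rc_AI237654_at of Txnip was at least 2.05-fold lower and D26393exon_s_at of Hk2 at least 2.86-fold higher in Rat1-control cells, short of 3-fold. Nothing is read from these shares, since fold values helped to choose the genes. With each array scaled by its median instead, the share of calls among all probe sets that were up was 44.8% in place of 23.1% in Rat1-Omomer cells and 66.0% in place of 51.7% in Rat1-control cells. Just short of 3-fold in Rat1-Omomer cells were M13979_at of Slc2a1, 2.85-fold higher, and M68971_at of Hk2, 2.81-fold lower. M13979_at was past 3-fold with median scaling, at 3.83-fold, and with quantile normalization, at 3.24-fold. Set against Rat1-control cells at 0 min, Rat1-Omomer cells at 90 min had 3 of the 8 up by 3-fold or more and 2 down, against 2.80% and 9.95% of 4220. By this measure Slc2a1 was 5.19- and 4.70-fold higher and Txnip 7.95- and 3.40-fold lower. The smaller of each pair was short of 3-fold with a floor of 4 noise SD, at least 2.65-fold higher and 2.05-fold lower. That of Txnip was also short of 3-fold with median scaling, at 2.56-fold, and with quantile normalization, at 2.85-fold.

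**Figure D2:**
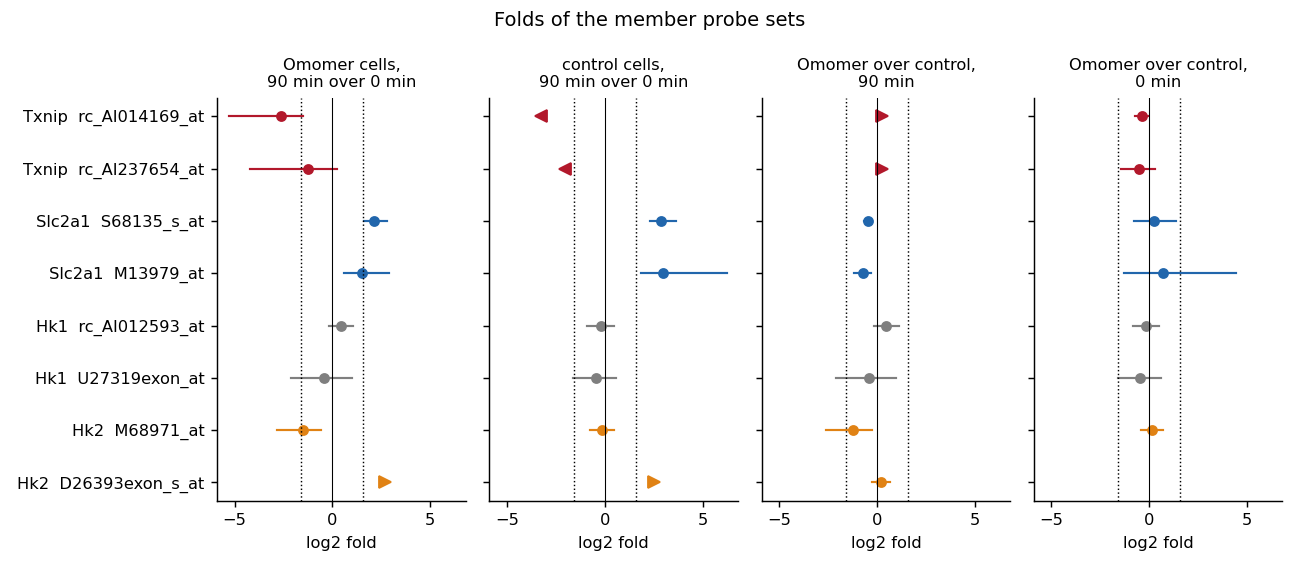
log2 folds of the 8 probe sets in 4 comparisons, with colours for genes and 1 array per condition. Circles are measured folds with their noise range as a line, triangles are lower bounds that point away from 0, and dotted lines mark 3-fold. Slc2a1 and 1 probe set of Hk2 lie to the right of 0 and Txnip to the left for 90 min over 0 min, whereas no probe set reaches 3-fold between the cell lines at 90 min or at 0 min.

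Between the cell lines, none of the 8 probe sets differed 3-fold at either time. At 90 min, 2.22% of 4048 probe sets were higher by 3-fold or more in Rat1-Omomer than in Rat1-control cells, and 8.57% lower by as much; calls up made 20.6% of these, or 38.2% with median scaling. The largest difference among the 8 was that of M68971_at of Hk2, which was 2.32-fold lower in Rat1-Omomer cells (noise range 1.18 to 6.02), while D26393exon_s_at was 1.14-fold higher (noise range 0.825 to 1.60). Slc2a1 was 1.39-fold lower by S68135_s_at (noise range 1.23 to 1.59) and 1.66-fold lower by M13979_at (noise range 1.24 to 2.28). With median scaling these folds were 1.16 and 1.38, and with quantile normalization 1.42 and 1.55. The noise ranges do not cover the choice of scaling, and 1.16 lies outside that of S68135_s_at. Txnip as read was higher in Rat1-Omomer cells, by at least 1.21-fold and at least 1.2-fold, with the Rat1-control values under the floor. Its values, 1269 against 694 and 1263 against 1035, lay within 2 noise SD of each other, so that the direction is not settled. Hk1 was 1.38-fold higher by 1 probe set and 1.34-fold lower by the other. At 0 min, 0.251% of 3977 probe sets were higher by 3-fold or more in Rat1-Omomer cells, and 0.503% lower by as much. Txnip was then 1.30-fold lower (noise range 1.03 to 1.66) and 1.43-fold lower (noise range 0.803 to 2.74), and Slc2a1 was 1.2- and 1.65-fold higher, both with noise ranges that held 1. M68971_at was 1.10-fold higher, and D26393exon_s_at has no fold since it was under the floor in both cell lines.

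The serum response of both Txnip and Slc2a1 was smaller in Rat1-Omomer than in Rat1-control cells by each probe set as read. For Slc2a1 the noise ranges of both cell lines overlapped, so that this was not beyond the noise ranges. For Txnip those of Rat1-Omomer cells held the bounds of Rat1-control cells. These bounds have no upper limit and no noise range, so that the comparison is not settled for Txnip. The log2 fold in Rat1-Omomer minus that in Rat1-control cells was -0.74 and -1.45 for Slc2a1, which was 1.67 and 2.73 times less. For Txnip it was at least 0.66 and at least 0.79, since the fold in Rat1-control cells is a bound in both. Across all 3766 probe sets with a fold in both cell lines, 23.4% and 11.2% had a lower difference than Slc2a1. Its differences thus lay inside the bulk of the array. For Txnip as read these shares were 75.0% and 81.5%. Since the differences of Txnip are bounds, its place could be higher and is not settled. For Hk2 the difference was -1.36 by M68971_at, while both folds of D26393exon_s_at are bounds and give none. For Hk1 it was 0.63 and 0.02. There is no replicate of either response, and the difference was not tested. With a floor of 4 noise SD in place of 2, both folds of M13979_at are bounds and give no difference. The same holds for each probe set of Txnip.

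**Figure D3:**
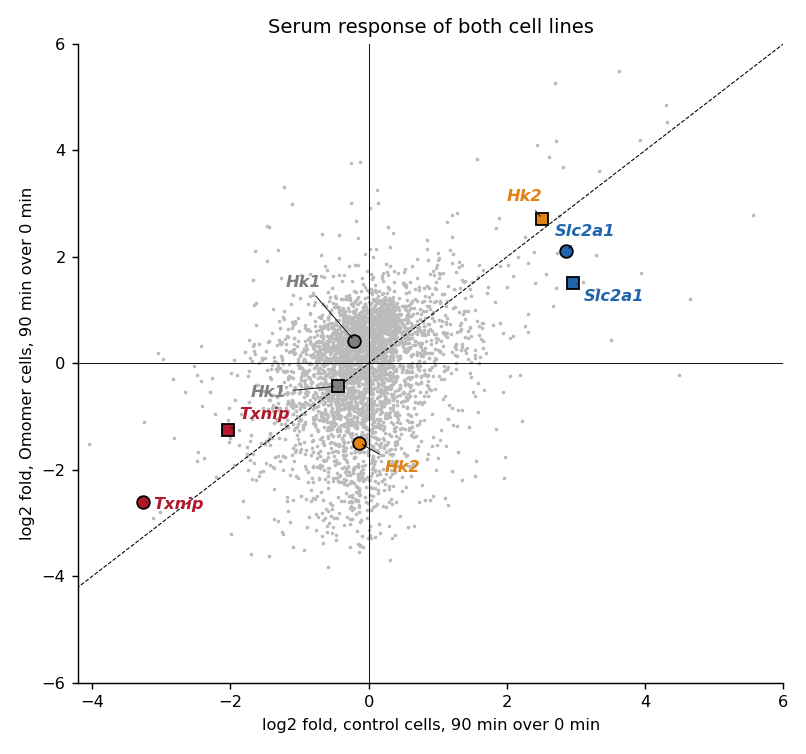
log2 folds of 90 min over 0 min in Omomer cells (vertical) against control cells (horizontal) for 3766 probe sets (grey) and the 8 probe sets of Txnip, Slc2a1, Hk1 and Hk2 (coloured; 1 array per condition); the dashed line marks equal folds. Slc2a1 lies at the upper right under the dashed line, Txnip at the lower left above it, and the 2 probe sets of Hk2 lie far apart.

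A few other genes had nearly the same course over the 4 arrays. Likeness was the root mean square difference of the 3 log2 folds over Rat1-control cells at 0 min, among 1607 genes. Nearest to Txnip were Tns2, a tensin of focal adhesions, at 0.15, the transcription factor Irf1 at 0.17 and the kinase anchor protein Akap12 at 0.63. Irf1 read 1034 in Rat1-Omomer and 1121 in Rat1-control cells at 90 min, against 7278 and 9063 at 0 min. Nearest to Slc2a1 were Il1rl1, an interleukin receptor, and Pdlim5, a protein of actin fibres, both at 0.28, and the secreted protein Metrnl at 0.29. Pdlim5 read 23222 and 22211 at 90 min, against 5477 and 4213 at 0 min, with Rat1-Omomer first; Il1rl1 was under the floor in both cell lines at 0 min. Nearest to Hk1 by rc_AI012593_at were Arfgap1 at 0.02, Macroh2a1 at 0.04 and Polr2f at 0.05, and nearest to Hk2 by M68971_at were Matr3 at 0.06 and Skic8 and Tgoln2, both at 0.07. The probe sets of Tns2 and Skic8 belong to the 5 expressed sequence tag series described with the lists of related genes. Matr3, a protein of the nuclear matrix, read 3102 and 7713 at 90 min, against 9662 and 8325 at 0 min. With 4 arrays and bounds at the floor, likeness describes these values only.

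The other genes of glucose uptake and use were followed in 6 lists with 114 probe sets. In Rat1-Omomer cells 1 of the 70 with a fold was up by 3-fold or more at 90 min and 12 were down; in Rat1-control cells 3 of 68 were up and none down. Over all probe sets 2.90% were up and 9.65% down in Rat1-Omomer cells, and 1.93% and 1.81% in Rat1-control cells, which are the shares to set beside the count of each list. Of the 12, 10 belonged to 5 series of probe sets made from expressed sequence tags (IDs starting with rc_AA79, rc_AA80, rc_AA85, rc_AA87 or rc_AA89), of which 29.6% over the whole array were down by 3-fold or more in Rat1-Omomer cells, against 3.70% of all other probe sets; in Rat1-control cells these shares were 1.94% and 1.76%. None of the 8 probe sets of Txnip, Slc2a1, Hk1 and Hk2 is in these series. The series were chosen after these values were seen, so that the contrast of shares is a description and carries no test. What part the series have in the lower values was not tested.

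Other glucose carriers did not follow Slc2a1. Of 13 probe sets for 8 genes of carriers and of glucose phosphorylation, 6 were under the floor on all 4 arrays, and none of 7 with a fold reached 3-fold in either cell line. The median log2 fold was -0.20 in Rat1-Omomer and 0.02 in Rat1-control cells, against 0.09 and -0.07 for all probe sets. Slc2a3, the neuronal carrier Glut3, was 1.37-fold higher in Rat1-Omomer and 1.06-fold higher in Rat1-control cells at 90 min. The fructose carrier Slc2a5 was 1.24- and 1.41-fold higher. For both Slc2a3 and Slc2a5, the other probe set of the gene was below 0 on all 4 arrays. The insulin-regulated Slc2a4, by a probe set of the 5 series, was at least 1.15-fold and at least 1.12-fold lower. The sodium-coupled Slc5a1 had 2 probe sets that disagreed in Rat1-Omomer cells, the brightest 1.48-fold lower and the other at least 2.06-fold higher, and Slc37a4, which moves glucose 6-phosphate into the endoplasmic reticulum, was 1.73-fold lower in Rat1-control cells.

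In glycolysis after hexokinase, 3 of 20 probe sets with a fold were down by 3-fold or more in Rat1-Omomer cells, where 9.65% of all probe sets were, and none of 19 changed 3-fold in Rat1-control cells. The medians were 0.29 and 0.03. Ldhb, a lactate dehydrogenase outside the 5 series, was 4.98-fold and 4.52-fold lower by 2 probe sets in Rat1-Omomer cells, and Pgk1, by a probe set of the series, 10.5-fold lower. The brightest probe set of Pgk1, outside the series, was 1.53-fold higher, at 31184 at 90 min against 20435 at 0 min. The pyruvate kinase Pkm was 2.62-fold lower. Pgam1, a mutase, was 1.57-fold and Pfkfb4, which makes an activator of phosphofructokinase, 1.55-fold higher. In Rat1-control cells Pfkp and Pfkfb4 were 1.67- and 1.30-fold higher, and Pfkfb1 and Pfkm 2.43- and 1.37-fold lower.

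Probe sets for the other uses of glucose 6-phosphate were lower at 90 min in Rat1-control cells. Their median was -0.69 over 11 probe sets, against -0.07 for all probe sets, and none was past 3-fold. Most of the 11 were several probe sets each of Gyg1, Pgm1 and Pygb, so that the median mainly describes these genes. Pygb, a glycogen phosphorylase, was 2.57-fold and Pgm1, a phosphoglucomutase, 2.46-fold lower, while Taldo1 and Tkt of the pentose phosphate route were 1.09- and 1.14-fold lower. In Rat1-Omomer cells the median was -0.34, with 3 of 12 down by 3-fold or more. These were Taldo1, at least 7.92-fold, and Pygb, at least 7.60- and 3.84-fold, all by probe sets of the 5 series. Gyg1, the primer of glycogen, had probe sets 1.43-fold and 1.34-fold higher and another 1.55-fold lower, and the muscle phosphorylase Pygm was at least 1.60-fold higher.

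The thioredoxin system, to which the partner of Txnip belongs, held 16 probe sets for 10 genes, 13 of them with a fold. Txnrd1, the cytosolic thioredoxin reductase, was the only one past 3-fold in Rat1-control cells. Its probe set U63923_at, outside the 5 series, read 3227 in Rat1-Omomer and 8342 in Rat1-control cells at 90 min, against 2155 and 1688 at 0 min. That of the series, rc_AA891286_at, read 951 and 16641, against 4633 and 4292. Both were high in Rat1-control cells at 90 min, 4.94-fold and 3.88-fold over 0 min, and they differ in Rat1-Omomer cells, where the second was down by at least 4.42-fold. Also lower in Rat1-Omomer cells by the series were the mitochondrial peroxiredoxin Prdx3, at least 10.4- and 5.57-fold, and Txnl1, 4.51-fold. Txn2, mitochondrial thioredoxin, was 1.45-fold and Arrdc1, an arrestin-like relative of Txnip, 1.30-fold higher in Rat1-Omomer cells. In Rat1-control cells Prdx1 was 1.01-fold, Prdx3 1.58-fold and Txnrd2 1.40-fold lower. The probe set of Prdx1 is outside the series, and it was 2.72-fold lower in Rat1-Omomer cells. The median was -0.12 in both cell lines.

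Of the Myc, Max and Mlx network, 5 of 9 probe sets were under the floor on all 4 arrays. Myc by its brightest probe set was 3.14-fold higher at 90 min in Rat1-Omomer and 4.25-fold higher in Rat1-control cells. Mxi1, a Max partner that represses, was lower by at least 4.43-fold in Rat1-Omomer and by 2.03-fold in Rat1-control cells, and Mxd4, another, by 1.94-fold and at least 1.55-fold, both by probe sets of the series. Among genes that signal to glucose uptake, 13 of 29 probe sets were under the floor on all 4 arrays, 1 of 15 with a fold was down by 3-fold or more in Rat1-Omomer cells, and none of 14 reached 3-fold in Rat1-control cells. The lower one was the kinase Akt1, 9.73-fold lower by the series and 1.47-fold lower by its probe set outside it. Prkab1, a subunit of AMP-activated kinase, was at least 1.67-fold and at least 2.20-fold lower, in Rat1-Omomer and Rat1-control cells. Prkag1, another subunit, was 1.64-fold higher in Rat1-Omomer and 1.62-fold lower in Rat1-control cells, and the insulin receptor substrate Irs2 was 1.99-fold higher in Rat1-Omomer cells. Hif1a and Gsk3a were 1.28- and 1.10-fold higher in Rat1-control cells.

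**Figure D4:**
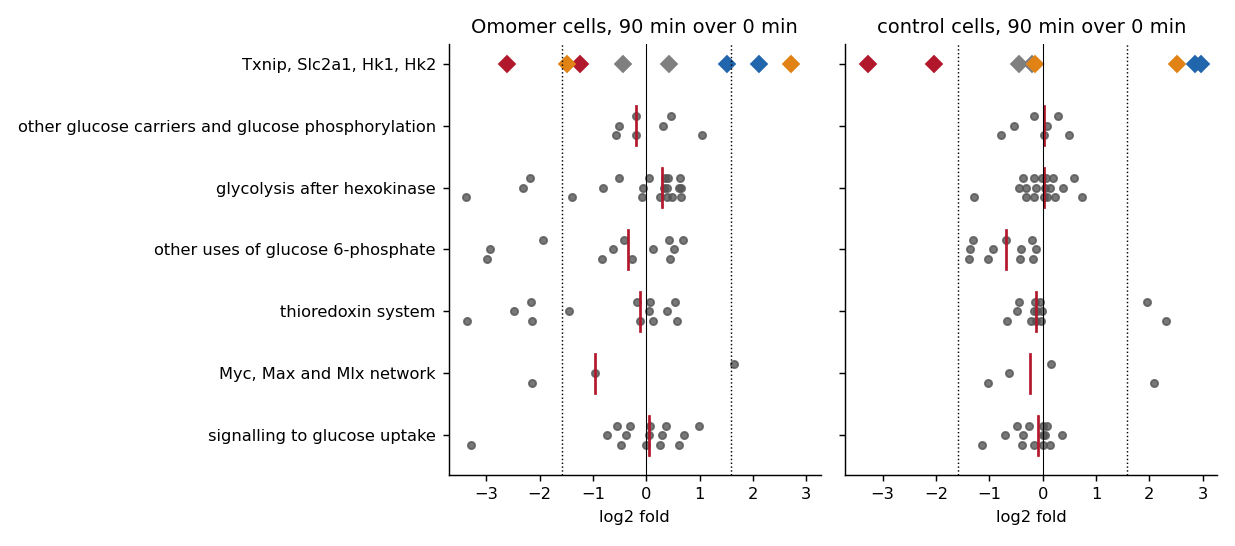
log2 folds of 90 min over 0 min in Omomer cells (left) and control cells (right), 1 array per condition: diamonds are the probe sets of Txnip (red), Slc2a1 (blue), Hk1 (grey) and Hk2 (orange), grey circles those of 6 lists of related genes, red bars the list medians, and dotted lines 3-fold. Of the circles, 12 lie past the lower dotted line in Omomer cells and 0 in control cells, and 1 and 3 lie past the upper one.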

How the data were processed

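The deposited values are intensities, the average differences that the authors computed with Microarray Analysis Suite 4.0 at default settings; they are linear, negative ones included, and the trimmed mean was 2500 on each array. Of 8740 probe sets without the 59 control ones, 7006 had 1 symbol in the platform annotation. The noise SD came from the median of all negative values. Folds were ratios of floored values, called at 3-fold as in the methods, which used the software's Fold Change. With 1 array per condition no test was run, and precision is limited by that number. Genes, lists and the 5 series were chosen with earlier results of these data known. Where 1 value per gene is given, it is from its brightest probe set. Named were the 2 highest and 2 lowest genes of each list per cell line, and the 3 genes most like each gene; further probe sets past 3-fold and motifs other than the E-box were chosen after their values were seen. The fold and call steps were tested on simulated data. Alternatives were floors of 1 and 4 noise SD and of each array, median scaling, quantile normalization, the difference form of the fold, a 2-fold threshold and brightest probe sets only. Python 3.11.15, numpy 2.4.6, pandas 2.3.3, scipy 1.17.1 and matplotlib 3.10.9 were used.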

Additional observations from a re-analysis of the deposited data

Results flagged for a closer look

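Hk1 by rc_AI012593_at was higher at 90 min than at 0 min in Rat1-Omomer cells and lower in Rat1-control cells, a difference of 0.63 on the log2 scale. Each cell line has 1 array per time, both folds had noise ranges that held 1, and the difference was not tested.

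Control probe sets of the manufacturer also measure Hk1 and stood outside the comparisons. At 90 min, the one for the middle of the mRNA read 2006 in Rat1-Omomer and 1244 in Rat1-control cells. At 0 min it read 1395 in Rat1-Omomer and 552 in Rat1-control cells. The one for the 3′ end had 630 in Rat1-Omomer and 1502 in Rat1-control cells at 90 min. Its values before serum were 1096 in Rat1-Omomer and 1022 in Rat1-control cells. The one for the 5′ end was under the floor on all 4 arrays. Values above the floor of 1048.2 and above those of Rat1-control cells at the same time drew notice, and no cause was tested.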

How the results depend on the processing

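Of 8 probe sets, 5 were at least 3-fold changed in Rat1-control cells at 90 min over 0 min; there were 3 with a floor of 4 noise SD and 2 with the brightest probe set of each gene. The same counts, 3 and 2 in place of 5, held for Rat1-Omomer cells at 90 min over Rat1-control cells at 0 min. The serum response of Rat1-Omomer cells held 3, and 4 with median scaling or quantile normalization, and 6 at a threshold of 2-fold. Between the cell lines at 90 min there was none, and 1 at 2-fold; at 0 min there was none under any alternative. The other counts stayed within 1.5 times. By the brightest probe set of each gene, of 99 recomputed folds none called at 3-fold changed sign. Hk2 in Rat1-control cells at 90 min over 0 min went from -0.14 (log2) to 0.0 with median scaling, and all others kept their sign. Of the 99, 5, all of Txnip, moved by 1.5 times or more, each with another floor. The dimmer probe sets moved as well with a floor of 4 noise SD. D26393exon_s_at of Hk2 was then at least 3.27-fold higher in Rat1-Omomer and 2.86-fold higher in Rat1-control cells at 90 min over 0 min (13.1 and 11.4 with 1 noise SD). M13979_at of Slc2a1 was at least 4.41-fold higher in Rat1-control cells and at least 2.65-fold for Rat1-Omomer at 90 min over Rat1-control at 0 min. rc_AI237654_at of Txnip was at least 1.43-fold lower in Rat1-Omomer and at least 2.05-fold lower in Rat1-control cells. Txnip in Rat1-control cells was -3.86 (log2) with a floor of 1 noise SD and -2.27 with 4. Median scaling moved the median log2 fold of all probe sets by 0.35 in Rat1-Omomer and 0.13 in Rat1-control cells at 90 min over 0 min, by 0.23 between the cell lines at 90 min and by 0.33 over Rat1-control cells at 0 min. The share of higher calls among all probe sets went with it, to 44.8% in place of 23.1%, 66.0% in place of 51.7%, 38.2% in place of 20.6% and 45.8% in place of 21.9%. No paired analysis was possible because each condition has 1 array. The values of Txnip in Rat1-control cells at 90 min, under the floor, limit the folds that use them to bounds.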
